A study of Homo sapiens with 21 samples.

Results

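The integrins and laminins form the set described here: 25 integrin chains and 10 laminin chains, chosen by gene symbol and not by any measured value. All 35 symbols were matched through their Ensembl identifiers to a row in each of 2 gene-level count tables that list 60668 identifiers. Of the 35, 32 had enough reads to be tested in each fit. ITGA8, ITGA11 and ITGB3 did not: ITGA8 had at most 6 counts in any of the 21 libraries, ITGA11 at most 16 and ITGB3 at most 14.

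Integrins are receptors of the cell surface made of an alpha and a beta chain, and the pairing sets which matrix protein they bind. Laminins are secreted trimers of an alpha, a beta and a gamma chain that assemble into the basement membrane under epithelia. In basal and squamous epithelium the dimer of ITGA6 and ITGB4 holds the cell to a laminin that contains LAMA3 and LAMB3, through a junction called the hemidesmosome, whereas dimers of ITGB1 link the matrix to actin filaments.

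The libraries came from HCC1806, an established line of human triple-negative breast cancer cells, and all groups were grown as adherent cultures and scraped off near confluence. The first table holds control cells (3xCTL), cells labelled 3xSR, which the series title describes as overexpressing SRSF2, SRSF3 and SRSF7 together, and cells overexpressing MYC (MYC-OE). The second holds cells with a single control plasmid (1xCtrl) and cells overexpressing 1 of the splicing factors (SRSF2-OE, SRSF3-OE and SRSF7-OE). Each of the 7 groups had 3 libraries. SRSF2, SRSF3 and SRSF7 are RNA-binding proteins that act in splicing, whereas MYC acts as a transcription factor. The vectors and their promoters, the plasmids carried by 3xCTL, and whether a line was a pool or a clone are not given in the sources used here. The labels do not say that replicates were separate cultures, so every test measures only the spread between these libraries.

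Total counts ranged from 143269192 to 303323552 per library. At these depths 3 counts, taken as the floor of detection, were worth between 0.00989 and 0.0209 CPM, the count scaled to a common library size. The 7 epithelial markers listed as basal or squamous for this work, CDH1 and EPCAM among them, were present in every library. Their summed level lay between 4266 and 5364 CPM, and 4 luminal markers summed to between 35.1 and 58.1 CPM. The luminal PGR was called lower in every overexpressing line, from means of 0.191 CPM in 3xCTL and 1.27 in 1xCtrl. In SRSF7-OE 3 of the 4 luminal markers were called higher and 1 lower, where 17.3% of all genes were called. Calls of the others went both ways across the lines. Among the targeted genes, SRSF3 was 525.8 CPM in SRSF3-OE against 374.6 in 1xCtrl, SRSF7 was 434.8 in SRSF7-OE against 362.6, and MYC was 173.8 in MYC-OE against 93.4 in 3xCTL. Under the label 3xSR, SRSF3 was 507 CPM against 408.7 in 3xCTL (log2 fold change 0.31, edgeR's adjusted p = 0.00243). SRSF7 was 394.7 CPM there against 291.8 (0.44, edgeR's adjusted p = 3.57e-05). These genes were also higher in lines not named for them. MYC reached 157 CPM in 3xSR (log2 fold change 0.75, edgeR's adjusted p = 4.01e-07), beside 0.90 in MYC-OE. In SRSF2-OE, SRSF3 was 460 and SRSF7 427.8 CPM (edgeR's adjusted p = 0.00794 and 0.00681). MYC was called higher in SRSF3-OE (0.26) and SRSF7-OE (0.27) too, calls lost in 5 and 4 of the 6 fits without a replicate. For SRSF2 no increase was measured, either under the label SRSF2-OE (398.5 CPM against 444.2) or under 3xSR (385.6 against 403.2), so directions below hold for the libraries with those labels. CPM were scaled within each table, and levels set side by side across the tables carry that limit.

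Laminin receptors and laminin chains led the set in the control cells. Per kilobase of exon, the integrin chains with the highest levels over the 6 control libraries were ITGB1 (198 CPM per kb), the common partner of many alpha chains, ITGA6 (192.2) and ITGB4 (99.1). The highest laminin chains on the same per-length scale were LAMB3 (197.8), LAMC1 (110.3), the common gamma chain, and LAMB1 (63.7). Next came ITGA3 (62.3), ITGAV (36.3), LAMA3 (32.9) and ITGA2 (29.6). Among the chains typical of leukocytes, ITGAE stood at 3.4, ITGB2 at 0.285 and ITGAL at 0.00903 CPM per kb, and ITGA4 stood at 0.154.

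**Figure D1:**
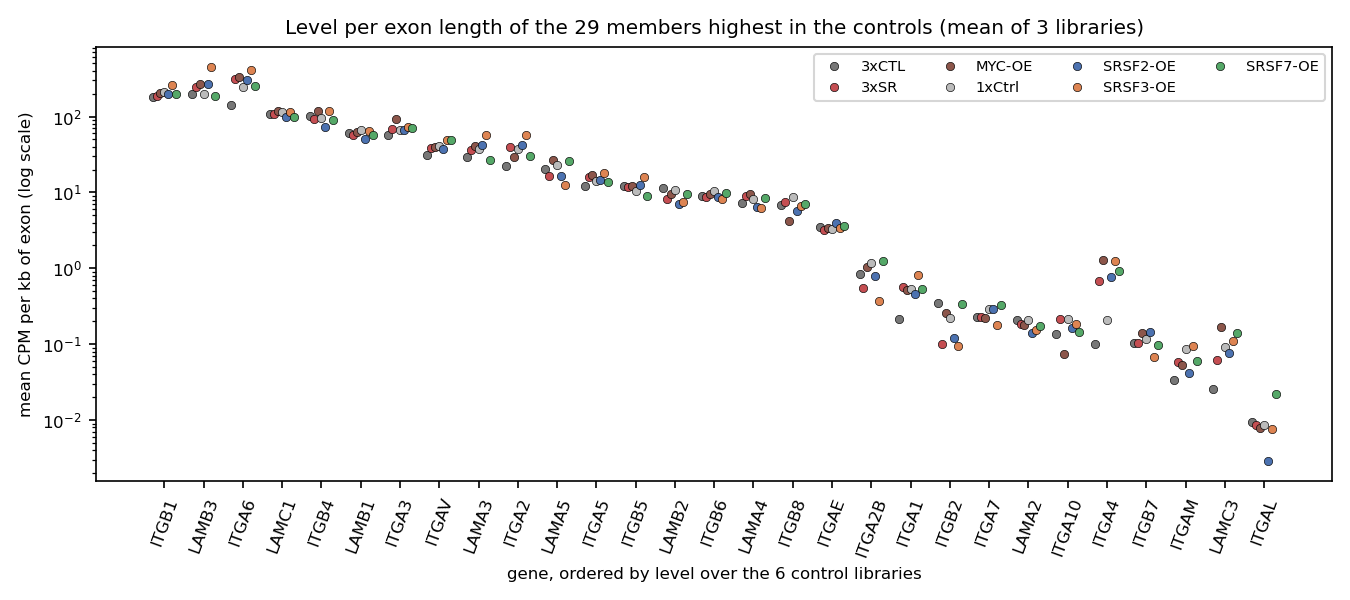
Mean level of 29 members per kilobase of exon (log axis, CPM per kb) in each of the 7 groups, with genes ordered by their level over the 6 control libraries. The order runs from ITGB1 at 198 to ITGAL at 0.00903, and the group means of ITGA4 run from 0.0997 in 3xCTL to 1.29 in MYC-OE.

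The members changed in both directions in most lines, and in MYC-OE mostly upward. Counts were tested with edgeR's quasi-likelihood test, with Benjamini-Hochberg adjustment over all genes of a table, and a gene is called at an adjusted p under 0.05. In the libraries labelled 3xSR, 13 of the 32 tested members were called against 3xCTL, 10 higher and 3 lower, where 29.0% of all genes tested were called (15.3% higher and 13.7% lower). In MYC-OE 15 were called, 13 higher and 2 lower, beside 35.3% of all genes (18.0% and 17.3%). Against 1xCtrl, 13 members were called under the label SRSF2-OE, 4 higher and 9 lower (23.5% of all genes, 11.6% higher and 11.9% lower). In SRSF3-OE 17 were called, 9 higher and 8 lower (29.2% of all genes, 15.0% and 14.1%). In SRSF7-OE 4 were called, 2 higher and 2 lower, beside 17.3% of all genes (9.03% and 8.26%). The median log2 fold change over the tested members was 0.01 in 3xSR, 0.34 in MYC-OE, -0.18 for SRSF2-OE, 0.01 for SRSF3-OE and -0.04 for SRSF7-OE. Over all genes tested it was -0.00, -0.00, -0.01, -0.03 and -0.00. In bulk RNA, fewer cells that carry a transcript and less of it per cell cannot be told apart.

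The count in SRSF7-OE was the least stable: it was 7 by DESeq2, 11 once the GC trend of every library was taken out, 12 without 1xCtrl replicate 2 and 2 without SRSF7-OE replicate 3. That in SRSF2-OE dropped to 7 without SRSF2-OE replicate 2 or without replicate 3.

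ITGA4 was the 1 member called in all 5 contrasts against a control. ITGA6, ITGB2, LAMA3 and LAMA4 were called in 4, while ITGB4, ITGA9, ITGAL, LAMA1 and LAMA5 were called in none. The contrasts of 3xSR and MYC-OE share the 3xCTL libraries, and the 3 single lines share 1xCtrl, so calls in several lines are not independent of each other. ITGA10, ITGB2, LAMA3 and LAMA4 were called higher in 1 line or more and lower in another. The share of all genes with such patterns over the contrasts was not counted, so whether they are unusual is not known.

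**Figure D2:**
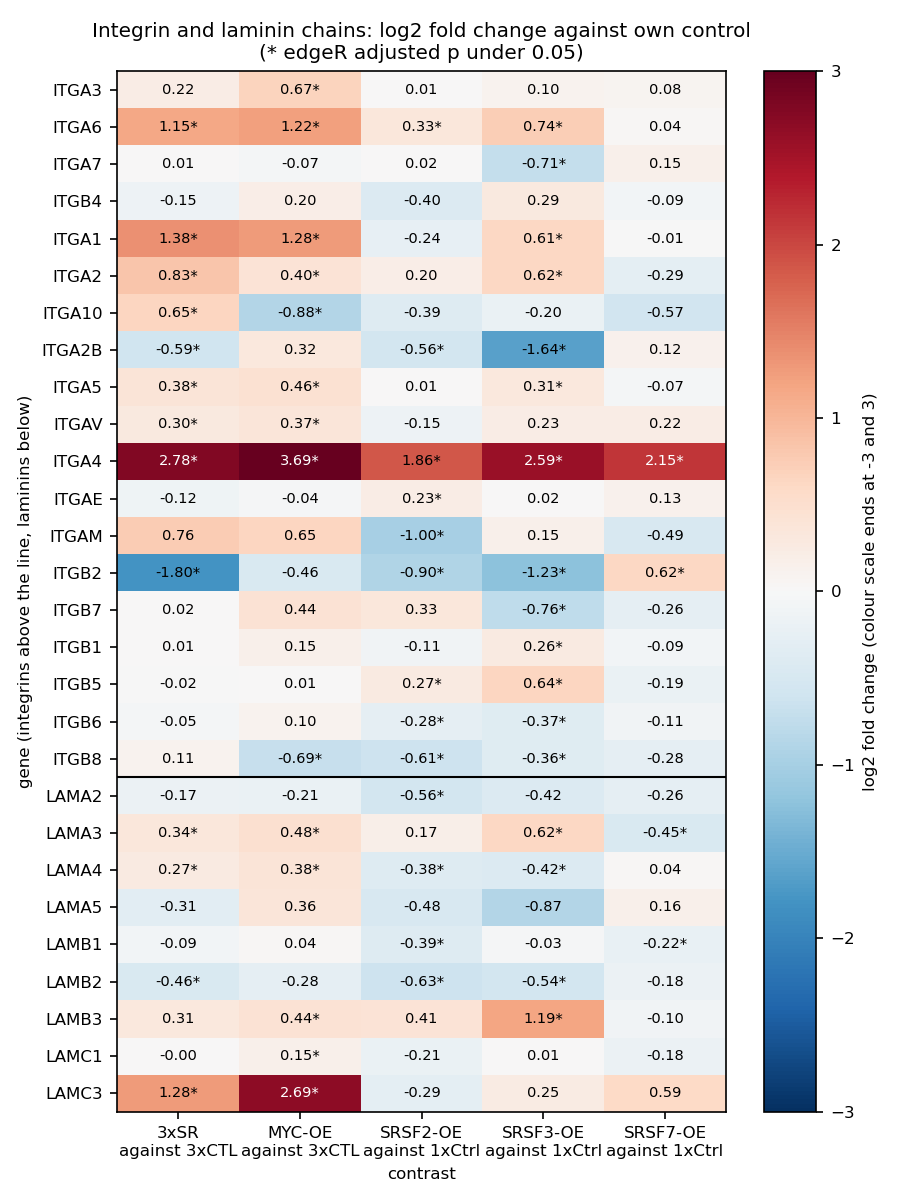
Log2 fold change of 28 members with a mean of at least 0.3 CPM, in rows, in the 5 contrasts against a control, in columns; an asterisk marks an edgeR adjusted p under 0.05. The row of ITGA4 is high in all 5 columns, from 1.86 in SRSF2-OE to 3.69 in MYC-OE, and that of ITGB2 is low in 3xSR (-1.80), SRSF2-OE (-0.90) and SRSF3-OE (-1.23) and high in SRSF7-OE (0.62).

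ITGA6, the alpha chain of the main laminin receptors of epithelium, rose in 4 of the 5 lines. It lies on chromosome 2 from 172427354 to 172506282 (GENCODE 29, GRCh38) and shares 351 exon bases with genes on the opposite strand, among them ITGA6-AS1. In the 3 libraries of 3xCTL it measured 863.8, 953.5 and 936.8 CPM, in those labelled 3xSR 2163, 1978 and 1987, and in MYC-OE 2129, 2166 and 2123. Every library of both overexpressing groups was above every control. The level was 2.22-fold higher in 3xSR than in 3xCTL (log2 fold change 1.15, SE 0.0555, edgeR's adjusted p = 4.56e-08) and 2.33-fold higher in MYC-OE (1.22, SE 0.0555, edgeR's adjusted p = 1.68e-08). MYC-OE and 3xSR overlapped, and their difference was 0.07 on the log2 scale with a 95% normal interval from -0.04 to 0.17.

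The controls of the second table held more ITGA6, with 1701, 1401 and 1676 CPM in 1xCtrl. It measured 1911, 2004 and 2097 CPM under the label SRSF2-OE, 2951, 2367 and 2667 in SRSF3-OE and 1694, 1670 and 1545 in SRSF7-OE. Both SRSF2-OE and SRSF3-OE lay above all 1xCtrl libraries, whereas SRSF7-OE lay among them. ITGA6 was 1.67-fold higher in SRSF3-OE (0.74, SE 0.0926, edgeR's adjusted p = 6.84e-05) and 1.26-fold higher in SRSF2-OE (0.33, SE 0.0922, edgeR's adjusted p = 0.0193). The call in SRSF2-OE was lost without SRSF2-OE replicate 2 or 3. In SRSF7-OE the difference was 0.04, with an interval from -0.14 to 0.22. SRSF3-OE exceeded SRSF7-OE by 0.70 (edgeR's adjusted p = 6.81e-05) and SRSF2-OE by 0.41 (edgeR's adjusted p = 0.00526).

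The promoter of ITGA6 was read because the gene rose in MYC-OE and MYC binds the E-box, although MYC and ITGA6 were both higher in 3xSR as well. Windows of 250 bases before each annotated start came from RefSeq (GRCh38.p14), which held 32 windows for 25 of the 35 members. The E-box was searched as CACGTG on both strands, which read alike. It occurred in 1 member window, an upstream start of ITGA6, which is 3.12% of the member windows, beside 6.34% of all 35116 windows. The window on the plus strand, chr2:172427086-172427335, is printed with the match in capitals.
ITGA6: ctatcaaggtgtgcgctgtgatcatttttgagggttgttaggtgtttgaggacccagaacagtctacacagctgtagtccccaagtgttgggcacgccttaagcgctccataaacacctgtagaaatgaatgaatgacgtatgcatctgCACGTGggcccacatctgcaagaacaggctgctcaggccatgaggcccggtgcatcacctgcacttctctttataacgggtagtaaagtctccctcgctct
The match ends 95 bases before that start and describes letters, not binding. ITGA4, which rose most in MYC-OE among the members at 1 CPM or more, has no E-box in its window. Whether MYC bound near either gene was not tested.

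ITGB4, the partner of ITGA6 in the hemidesmosome, was not called in any line. It measured 816.9, 466.1 and 776.9 CPM in 3xCTL, 608, 671.1 and 576.8 in 3xSR and 746.9, 760.3 and 858.8 in MYC-OE. Its level in the second table was 530.1, 1066 and 362.9 CPM in 1xCtrl, 522.7, 451.2 and 509.4 for SRSF2-OE, 806.3, 761.1 and 823.2 for SRSF3-OE and 636.7, 468.7 and 733.6 for SRSF7-OE. The 1xCtrl libraries differed 2.94-fold among themselves and overlapped all 3 single lines. The log2 fold change was -0.15 in 3xSR, 0.20 in MYC-OE, -0.40 for SRSF2-OE, 0.29 for SRSF3-OE and -0.09 for SRSF7-OE. The intervals in the second table were wide, from -0.38 to 0.95 in SRSF3-OE.

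Of the other laminin-binding alpha chains, ITGA3, the partner of ITGB1 on epithelial laminins, rose 1.59-fold in MYC-OE (0.67, SE 0.095, edgeR's adjusted p = 0.000267). Its level there was 859.7, 917.8 and 931.4 CPM, above 614.6, 468.6 and 617 in 3xCTL. In 3xSR the difference was 0.22 (edgeR's adjusted p = 0.104). ITGA7, the laminin receptor of muscle, stayed between 0.991 and 2.18 CPM in all 21 libraries and was lower in SRSF3-OE (-0.71, SE 0.149, edgeR's adjusted p = 0.00282).

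The collagen receptors ITGA1 and ITGA2 both rose in 3xSR, MYC-OE and SRSF3-OE. ITGA1 measured 3.89, 4.11 and 4.01 CPM in 3xCTL, 11, 9.63 and 10.6 in 3xSR and 10.3, 9.94 and 9.01 in MYC-OE. Both lines were above all 3 controls and overlapped each other. The increase was 2.60-fold in 3xSR (1.38, SE 0.0847, edgeR's adjusted p = 3.44e-07) and 2.43-fold in MYC-OE (1.28, SE 0.0844, edgeR's adjusted p = 3.61e-07). In 1xCtrl ITGA1 stood at 11, 8.75 and 10.1 CPM, a range that takes in the levels of 3xSR and MYC-OE. SRSF3-OE, at 16.3, 14.6 and 14.6 CPM, was above all of them (0.61, SE 0.0925, edgeR's adjusted p = 0.000302). SRSF2-OE, at 8.45, 8.26 and 8.62 CPM, and SRSF7-OE, at 10.6, 9.58 and 9.46, were not called (-0.24 and -0.01). ITGA1 shares 1046 of its 18566 exon bases with PELO and AC022133.1 on its own strand. The part of its counts that came from those bases, or from those genes, is not known and may exceed their share of the length.

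ITGA2 was far more abundant, at 168.2, 177.1 and 177.8 CPM in 3xCTL. The libraries labelled 3xSR held 335.4, 290.9 and 305.4 CPM and MYC-OE 238.6, 225.3 and 227.6, so the 3 groups did not overlap. It rose by 0.83 in 3xSR and by 0.40 in MYC-OE on the log2 scale (SE 0.0581 and 0.0578, edgeR's adjusted p = 9.88e-07 and 0.0002), and the 2 lines differed by -0.43 (edgeR's adjusted p = 0.000173). In SRSF3-OE ITGA2 rose by 0.62 (SE 0.107, edgeR's adjusted p = 0.000756), from a mean of 293.8 CPM ± 44.4 (SD, n = 3) to 451.1 ± 51.4. It was not called in SRSF2-OE (0.20) or SRSF7-OE (-0.29), and SRSF3-OE exceeded SRSF7-OE by 0.91 (edgeR's adjusted p = 2.86e-05).

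ITGA10, a collagen receptor of cartilage, went in opposite directions in the 2 lines of the first table. It measured 1.05, 0.68 and 0.878 CPM in 3xCTL, 1.15, 1.46 and 1.48 in 3xSR and 0.568, 0.373 and 0.471 in MYC-OE, without overlap. It was called higher in 3xSR (0.65, SE 0.208, edgeR's adjusted p = 0.0357) and lower in MYC-OE (-0.88, SE 0.213, edgeR's adjusted p = 0.00652), and MYC-OE was 2.89-fold below 3xSR (-1.53, SE 0.214, edgeR's adjusted p = 0.000226). The call in 3xSR was lost with no filter on low counts and without any 1 of 3xCTL replicates 2 and 3 and 3xSR replicates 2 and 3.

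Among the alpha chains that bind the RGD motif, ITGA5, the fibronectin receptor, and ITGAV, which binds vitronectin and latent TGF-beta, rose modestly in the first table. ITGA5 was higher by 0.38 in 3xSR and 0.46 in MYC-OE (edgeR's adjusted p = 0.000714 and 0.000128), and ITGAV by 0.30 and 0.37 (edgeR's adjusted p = 0.00059 and 0.000102). In SRSF3-OE ITGA5 was higher by 0.31 (edgeR's adjusted p = 0.00587), a call lost with total counts alone, with the other groups left out of the fit, and without SRSF3-OE replicate 1 or 3 or 1xCtrl replicate 1 or 3.

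ITGA2B, the platelet chain that pairs with ITGB3, fell in 3 lines. In 1xCtrl it measured 5.77, 8.54 and 5.02 CPM, in SRSF2-OE 4.1, 4.58 and 4.4, in SRSF3-OE 1.76, 2.26 and 2.2 and in SRSF7-OE 7.01, 6.13 and 7.86. SRSF3-OE was the lowest group, with no library near the others. It was 3.11-fold lower there than in 1xCtrl (-1.64, SE 0.18, edgeR's adjusted p = 2.59e-05), 2.1-fold lower than in SRSF2-OE (-1.07, edgeR's adjusted p = 0.000718) and 3.38-fold lower than in SRSF7-OE (-1.76, edgeR's adjusted p = 9.26e-06). In the libraries labelled 3xSR, at 2.8, 3.26 and 3.2 CPM, ITGA2B was below 3xCTL at 5.12, 3.98 and 4.82 (-0.59, SE 0.124, edgeR's adjusted p = 0.00389). MYC-OE, at 5.21, 5.64 and 6.56 CPM, was above 3xSR by 0.91 (edgeR's adjusted p = 0.000194). In SRSF2-OE the decrease was -0.56 (edgeR's adjusted p = 0.0337), and that call was lost with no filter, with the other groups left out of the fit and without 1xCtrl replicate 2 or any 1 SRSF2-OE replicate. Its usual partner ITGB3 was at or near 0, with 14 counts as the highest value.

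ITGA4, the alpha chain of receptors for VCAM1 and for one region of fibronectin, best known from leukocytes, had the largest increases among members at 1 CPM or more. It lies on chromosome 2 from 181457202 to 181536187 and shares no exon base with another gene. It measured 0.925, 0.739 and 0.7 CPM in 3xCTL, 6.25, 5.11 and 4.9 in 3xSR and 10.2, 10.9 and 9.5 in MYC-OE. The 3 groups stood apart, with MYC-OE highest. The level was 6.85-fold higher in 3xSR (2.78, SE 0.136, edgeR's adjusted p = 5.26e-08) and 12.9-fold higher in MYC-OE (3.69, SE 0.14, edgeR's adjusted p = 3.98e-09), and MYC-OE exceeded 3xSR by 0.91 (SE 0.125, edgeR's adjusted p = 0.00019).

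Among the single lines and their control, ITGA4 stood at 1.64, 1.51 and 1.79 CPM in 1xCtrl. It measured 5.69, 5.92 and 6.33 CPM in SRSF2-OE, 11.2, 9.19 and 9.39 in SRSF3-OE and 8.16, 7.42 and 6.28 in SRSF7-OE. No library of the 3 lines came near the controls. The increase was 6.04-fold in SRSF3-OE (2.59, SE 0.126, edgeR's adjusted p = 3.56e-08), 4.43-fold in SRSF7-OE (2.15, SE 0.124, edgeR's adjusted p = 8.6e-07) and 3.63-fold in SRSF2-OE (1.86, SE 0.123, edgeR's adjusted p = 9.79e-07). SRSF3-OE exceeded SRSF2-OE by 0.73 and SRSF7-OE by 0.45 (edgeR's adjusted p = 0.000585 and 0.00924). SRSF2-OE and SRSF7-OE overlapped and differed by -0.28 (interval from -0.52 to -0.05, edgeR's adjusted p = 0.0995). ITGA9, the close relative of ITGA4, had at most 18 counts in a library.

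Leukocyte markers were examined beside ITGA4. CD68, a lysosomal protein of macrophages that other cells also make, rose in all 5 contrasts: its mean was 8.51 CPM in 3xCTL, 18 in 3xSR and 34.6 in MYC-OE, and 12.2 in 1xCtrl, 21.5 for SRSF2-OE, 30.7 for SRSF3-OE and 21.7 for SRSF7-OE. PTPRC, the pan-leukocyte surface protein, had group means between 0.192 and 0.419 CPM and was called only in SRSF7-OE (1.13, edgeR's adjusted p = 0.0358). Of the 3 leukocyte markers reported, CD3E, a chain of the T-cell receptor complex, was at 0 in every library of MYC-OE, 1xCtrl, SRSF2-OE and SRSF7-OE. The summed level of the 3 ran from 6.14 to 11.0 CPM in 3xCTL, from 16.6 to 20.5 in 3xSR and from 32.5 to 36.5 in MYC-OE. The single lines and their control gave a sum from 9.40 to 15.7 CPM in 1xCtrl, from 20.8 to 22.9 in SRSF2-OE, from 29.2 to 32.2 in SRSF3-OE and from 20.4 to 25.1 in SRSF7-OE. Nearly all of the sum was CD68, at 32.1 to 36.1 CPM in MYC-OE, so its rise is that of 1 gene. PTPRC was not called in the other 4 contrasts. Whether leukocyte RNA took part in the change of ITGA4 was not tested.

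**Figure D3:**
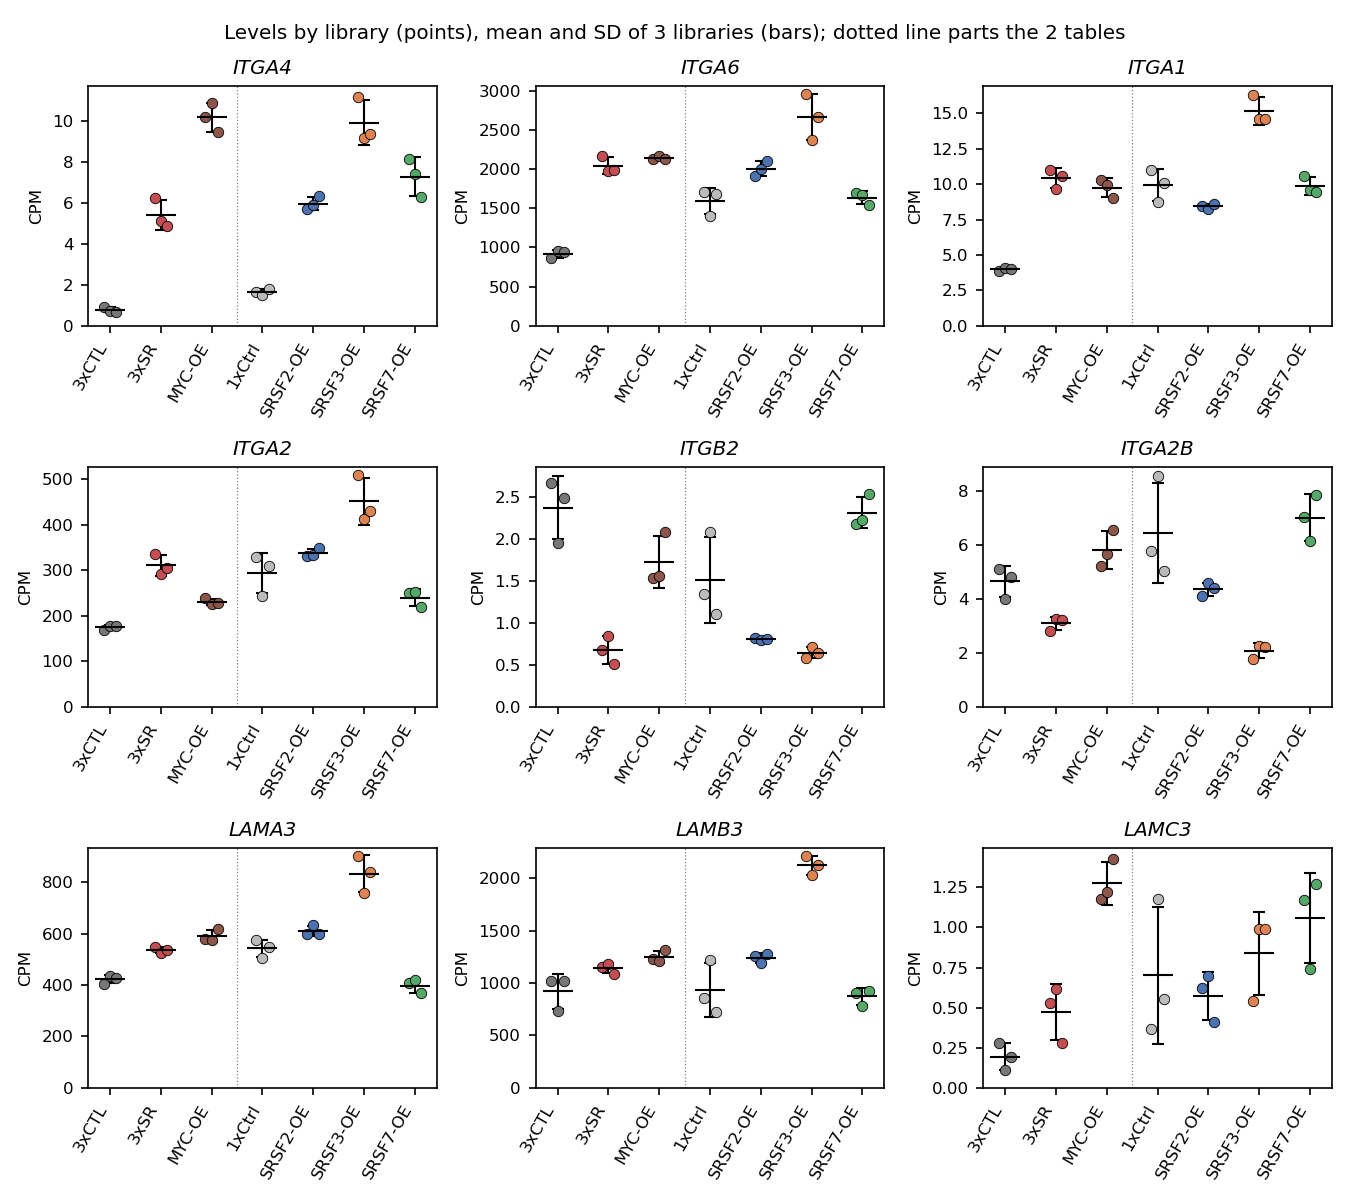
CPM of 9 members in each of the 21 libraries (points) with the mean and SD of each group of 3 (bars), 3 groups of the first table left of the dotted line and 4 of the second right of it. ITGA4 lies between 0.7 and 1.79 in the 6 control libraries and between 4.9 and 11.2 in the others, and ITGA6 is higher in 1xCtrl (1401 to 1701) than in 3xCTL (863.8 to 953.5).

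ITGB2, the beta chain shared by the leukocyte integrins, moved the other way in 3 of the lines. It measured 2.67, 1.95 and 2.49 CPM in 3xCTL, 0.675, 0.842 and 0.51 in 3xSR and 1.54, 1.56 and 2.08 in MYC-OE. The libraries labelled 3xSR lay below all others of that table, and MYC-OE overlapped the controls. ITGB2 was 3.49-fold lower in 3xSR (-1.80, SE 0.205, edgeR's adjusted p = 4.82e-05) and not called in MYC-OE (-0.46, edgeR's adjusted p = 0.0913), and MYC-OE exceeded 3xSR by 1.35 (edgeR's adjusted p = 0.000379).

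In 1xCtrl ITGB2 stood at 1.34, 2.08 and 1.11 CPM, in SRSF2-OE at 0.819, 0.798 and 0.81, in SRSF3-OE at 0.579, 0.713 and 0.64 and in SRSF7-OE at 2.18, 2.23 and 2.53. SRSF2-OE and SRSF3-OE were below every control and SRSF7-OE above every one. The decrease was 2.35-fold in SRSF3-OE (-1.23, SE 0.203, edgeR's adjusted p = 0.00053) and 1.87-fold in SRSF2-OE (-0.90, SE 0.2, edgeR's adjusted p = 0.00549). The increase of 0.62 in SRSF7-OE (SE 0.197, edgeR's adjusted p = 0.047) was lost under RLE scaling, with unscaled totals, with no filter, with the other groups left out of the fit and in 5 of the 6 fits without a replicate. The direct difference was large: SRSF3-OE was 3.59-fold below SRSF7-OE (-1.85, SE 0.204, edgeR's adjusted p = 1.67e-05) and SRSF2-OE 2.86-fold below it (-1.52, SE 0.201, edgeR's adjusted p = 0.000172). Opposite its strand, ITGB2 shares 303 exon bases with ITGB2-AS1, and whether counting used the strand is not given in the sources used here.

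Of the other leukocyte chains, all but ITGAE lay below 1 CPM in every library. ITGAL had between 3 and 47 counts, and ITGAX, the dendritic-cell chain, between 0 and 47. ITGAX had 19, 27 and 25 counts in MYC-OE and 6, 0 and 2 in 3xCTL, and was called higher (edgeR's adjusted p = 0.0129), a call lost without MYC-OE replicate 2. ITGAM, the chain of macrophages and neutrophils, was lower in SRSF2-OE (2-fold, edgeR's adjusted p = 0.0425), which did not hold by limma-voom, with no filter or with the other groups left out of the fit, nor in 5 of the 6 fits without a replicate. ITGB7 was lower in SRSF3-OE (-0.76, edgeR's adjusted p = 0.00453) but shares 1886 of its 4481 exon bases with ZNF740 on the opposite strand. ITGAE, the chain that binds E-cadherin, ranged from 20.5 to 26.9 CPM, the highest of the leukocyte group, and was 1.17-fold higher in SRSF2-OE (0.23, edgeR's adjusted p = 0.0232). That call was lost with unscaled totals, with no filter, with the other groups left out of the fit and without 1xCtrl replicate 1 or any 1 SRSF2-OE replicate.

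ITGB1, the beta chain with the highest level per length, moved little. It measured 1037, 1185 and 1069 CPM in 3xCTL, 1137, 1090 and 1097 in 3xSR and 1210, 1240 and 1192 in MYC-OE. The second table gave 1360, 1134 and 1358 CPM in 1xCtrl, 1137, 1194 and 1232 for SRSF2-OE, 1648, 1451 and 1528 for SRSF3-OE and 1214, 1242 and 1153 for SRSF7-OE. Only the SRSF3-OE libraries lay wholly above those of 1xCtrl. Its difference from 3xCTL was 0.01 in 3xSR (interval from -0.09 to 0.12) and 0.15 in MYC-OE (edgeR's adjusted p = 0.0587). With the GC trend removed, ITGB1 passed edgeR's test in both, at -0.12 in 3xSR (adjusted p = 0.017) and 0.18 in MYC-OE (adjusted p = 0.00107). The increase in SRSF3-OE, 0.26 (SE 0.0787, edgeR's adjusted p = 0.0219), was lost under upper-quartile scaling, with total counts alone, with the other groups left out of the fit and without 1xCtrl replicate 2 or SRSF3-OE replicate 1 or 3.

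The beta chains that pair with ITGAV went different ways. ITGB5 rose in SRSF3-OE (0.64, SE 0.0715, edgeR's adjusted p = 2.94e-05), where it stood at 107.7, 97.6 and 104.2 CPM against 65.1, 73.6 and 60.2 in 1xCtrl. It was also called in SRSF2-OE (0.27, edgeR's adjusted p = 0.0149), a call lost with unscaled totals, with no filter, with the other groups left out of the fit and in 5 of the 6 fits without a replicate. ITGB6, an epithelial receptor of latent TGF-beta, fell in both SRSF2-OE (-0.28) and SRSF3-OE (-0.37, edgeR's adjusted p = 0.0197 and 0.00272). It shares 966 exon bases with AC092153.1 on its own strand. ITGB8, another receptor of latent TGF-beta, fell in MYC-OE (-0.69, SE 0.0663, edgeR's adjusted p = 8.47e-06), to 68.7, 66.7 and 57.4 CPM from 102.6, 105.3 and 102.9. It fell too in SRSF2-OE (-0.61, edgeR's adjusted p = 0.000774) and SRSF3-OE (-0.36, edgeR's adjusted p = 0.0155), although in SRSF3-OE the groups overlapped.

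Among the laminins, LAMA3 and LAMB3, chains of the hemidesmosomal laminin, rose together in MYC-OE and SRSF3-OE. LAMB3 (chromosome 1, from 209614870 to 209652466) measured 861.1, 1217 and 721.9 CPM in 1xCtrl, 1259, 1187 and 1280 for SRSF2-OE, 2212, 2034 and 2124 for SRSF3-OE and 909.2, 780.3 and 926.4 for SRSF7-OE. SRSF3-OE stood above every other library of that table. The increase was 2.28-fold (1.19, SE 0.152, edgeR's adjusted p = 0.000165), and SRSF3-OE exceeded SRSF2-OE by 0.77 and SRSF7-OE by 1.28 (edgeR's adjusted p = 0.00307 and 6.43e-05). In the first table LAMB3 stood at 1022, 728.5 and 1015 CPM in 3xCTL, 1152, 1183 and 1091 in 3xSR and 1228, 1211 and 1313 in MYC-OE. Both lines lay above the controls, and the call passed in MYC-OE (0.44, SE 0.112, edgeR's adjusted p = 0.0122) and not in 3xSR (0.31, edgeR's adjusted p = 0.0659). The call in MYC-OE was lost with the other groups left out of the fit.

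LAMA3 (chromosome 18, from 23689443 to 23956222) measured 405.6, 436 and 429.1 CPM in 3xCTL, 548.4, 526.7 and 535.1 in 3xSR and 581, 574.6 and 617.6 in MYC-OE. It rose in both lines, by 0.34 (SE 0.0495, edgeR's adjusted p = 0.000302) and 0.48 (edgeR's adjusted p = 1.49e-05). In the second table it stood at 574.1, 506.2 and 548.2 CPM in 1xCtrl, 904.4, 759.6 and 838.6 in SRSF3-OE and 406.8, 418.7 and 367.7 in SRSF7-OE, with no overlap. It rose in SRSF3-OE (0.62, SE 0.0767, edgeR's adjusted p = 6.25e-05) and fell in SRSF7-OE (-0.45, SE 0.0765, edgeR's adjusted p = 0.00199), so that the 2 lines differed 2.1-fold (1.07, SE 0.0772, edgeR's adjusted p = 4.67e-07). In SRSF2-OE, at 600.6, 632.9 and 600.1 CPM, it was not called (0.17).

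Among the members, only LAMA3 and LAMB3 had a promoter window that held an AP-1 motif, searched as TGACTCA or TGAGTCA. These are the same site read on either strand. The motif occurred in 2 of the 32 member windows (6.25%) and in 4.2% of all windows of that length. By gene, it occurred in 2 of the 25 members with a window, beside 5.19% of all genes with one. The LAMB3 window with the motif, on the minus strand at chr1:209651395-209651624, is given without the bases that lie in exons. The other windows of LAMB3 held no AP-1 motif. The pair of LAMA3 matches, on the plus strand at chr18:23872885-23872911 and chr18:23872941-23872967, lie in an annotated exon and are given with 10 bases on either side. Capitals mark the motif.
LAMB3: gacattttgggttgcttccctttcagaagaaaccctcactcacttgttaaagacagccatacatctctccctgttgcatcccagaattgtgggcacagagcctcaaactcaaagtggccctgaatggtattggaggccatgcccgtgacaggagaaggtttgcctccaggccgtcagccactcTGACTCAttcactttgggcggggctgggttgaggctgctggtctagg
LAMA3, upstream match: tggcacaggcTGACTCAtgtgtgaagt
LAMA3, downstream match: cttcctcaccTGAGTCAggcaggcccg
Within its window, the LAMB3 match ends 60 bases before the annotated start that follows the window. The LAMA3 matches end 118 and 62 bases before theirs. Both of these starts lie inside the gene spans given above, so they are internal starts. Neither window contains CACGTG. The matches describe letters, and whether AP-1 bound there or had a part in the changes of LAMA3 and LAMB3 was not tested.

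LAMA4, a chain of vessel and mesenchymal laminins, went in opposite directions in the 2 tables. It stood at 82.3, 87.2 and 84.7 CPM in 3xCTL and was higher in 3xSR (106.3, 99.3 and 101.3; log2 fold change 0.27, edgeR's adjusted p = 0.00137) and in MYC-OE (108, 109.3 and 113.8; 0.38, edgeR's adjusted p = 8.45e-05). Against 102, 86.4 and 100.2 CPM in 1xCtrl it was lower in SRSF2-OE (-0.38, edgeR's adjusted p = 0.00603) and SRSF3-OE (-0.42, edgeR's adjusted p = 0.00252). SRSF7-OE was not called (0.04). Markers of vessel and connective tissue cells were examined beside it. Every call among them was a decrease, whereas LAMA4 went both ways. LUM, a proteoglycan of connective tissue, was lower in all 5 lines, with means of 37.6 CPM in 3xCTL, 16 in 3xSR and 8.96 in MYC-OE, and of 20.1 in 1xCtrl, 6.84 for SRSF2-OE, 6.28 for SRSF3-OE and 12 for SRSF7-OE (edgeR's adjusted p from 2.03e-09 to 0.00186). The other fibroblast markers, DCN and PDGFRA, were not called. VWF, a clotting protein of endothelium, was lower in 3xSR (-1.37), MYC-OE (-1.50) and SRSF3-OE (-1.49), from 0.787 CPM in 3xCTL and 0.382 in 1xCtrl. The 3 endothelial markers summed to between 0.137 and 1.28 CPM, and the 3 fibroblast markers to between 5.8 and 40.1. Their part in the differences of LAMA4 was not tested.

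LAMC3, a gamma chain of low level, rose in MYC-OE to 1.18, 1.22 and 1.43 CPM from 0.278, 0.113 and 0.194 in 3xCTL. This was a 6.45-fold increase (2.69, SE 0.337, edgeR's adjusted p = 7.79e-05). In 3xSR, at 0.532, 0.614 and 0.279 CPM, it rose by 1.28 (SE 0.335, edgeR's adjusted p = 0.0137), which was lost without 3xCTL replicate 3 or 3xSR replicate 1 or 2, and MYC-OE exceeded 3xSR by 1.41 (edgeR's adjusted p = 0.00491). In the second table the 1xCtrl libraries alone ran from 0.369 to 1.18 CPM, and no line was called.

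The common chains LAMC1 and LAMB1 were called in few lines. LAMC1 measured 861.3, 929.1 and 922.2 CPM in 3xCTL, 909.4, 906.7 and 892.4 in 3xSR and 984.4, 1011 and 1018 in MYC-OE. For the second table the values were 995.2, 892.1 and 961.9 CPM in 1xCtrl, 808.7, 838.1 and 820.1 for SRSF2-OE, 1032, 903.7 and 923.6 for SRSF3-OE and 880.3, 874.6 and 759.5 for SRSF7-OE. Its 1 call was an increase of 0.15 in MYC-OE (SE 0.0467, edgeR's adjusted p = 0.0241), lost with total counts alone and without 3xCTL replicate 1 or any 1 MYC-OE replicate.

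LAMB1 measured 471.7, 508.8 and 502 CPM in 3xCTL, 458.1, 474.1 and 459.4 in 3xSR and 493.8, 518.2 and 507.1 in MYC-OE, and neither line was called. It measured 561.1, 533.8 and 532.3 CPM in 1xCtrl, 401.3, 425.9 and 418.4 for SRSF2-OE, 567.2, 512.3 and 515.9 for SRSF3-OE and 489, 475.4 and 430.9 for SRSF7-OE. SRSF2-OE and SRSF7-OE lay below every control, with log2 differences of -0.39 (edgeR's adjusted p = 0.000915) and -0.22 (edgeR's adjusted p = 0.0312). The call in SRSF7-OE was lost without SRSF7-OE replicate 3 and with the other groups left out of the fit.

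LAMB2, a chain of muscle and kidney basement membrane, was called lower in 3xSR (-0.46), SRSF2-OE (-0.63) and SRSF3-OE (-0.54), with edgeR's adjusted p = 0.0246, 0.0292 and 0.0463. Each of the 3 calls was lost in a fit of the groups compared alone and in at least 3 of the 6 fits without a replicate. LAMA2, of muscle, was lower in SRSF2-OE (-0.56, edgeR's adjusted p = 0.0317), lost in 4 of the 6 fits without a replicate. LAMA1 had at most 105 counts and was not called.

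Among the 1xCtrl libraries, LAMA5 and ITGB4 were highest in the library where GC-rich genes as a whole were highest; the cause was not tested. ITGA3, ITGB4, LAMA5, LAMB2 and LAMB3 have between 58.9% and 66.4% GC in their longest transcript and a mean of at least 10 CPM. The decile of genes with the highest GC content lay 0.61 above the average library in 1xCtrl replicate 2, in median log2 CPM, and 0.39 below it in 1xCtrl replicate 3 (-0.39). LAMA5, the main alpha chain of adult epithelial basement membrane, measured 233.8, 591.2 and 168.1 CPM in these 1xCtrl libraries, and ITGB4 had its highest value of all 21 in replicate 2. With each library's GC trend removed, the highest 1xCtrl library exceeded the lowest 1.47-fold for LAMA5 in place of 3.52-fold, and 1.49-fold for ITGB4 in place of 2.94-fold. ITGA6, at 42.9% GC, was lowest in replicate 2 of the 3. The GC-rich decile also differed between groups. It lay at -0.26, -0.12 and -0.24 in 3xSR, at 0.16, 0.15 and 0.27 in MYC-OE and at -0.25, -0.13 and -0.10 in SRSF3-OE. The means of ITGA3 were 661.3 CPM in 3xSR and 903 in MYC-OE, and 744 and 814.2 with the trend removed.

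Removing the trend added calls among these 5 genes and others. Of the member values against a control that were not called, 20 then passed in the same direction and 1 in the opposite one. The other 77 stayed uncalled. ITGB4 was then called higher in SRSF3-OE (0.57, edgeR's adjusted p = 0.00247) and LAMA5 lower (-0.47, edgeR's adjusted p = 0.0167). In 3xSR, LAMB3 (0.51, edgeR's adjusted p = 6.37e-06) and ITGA3 (0.46, edgeR's adjusted p = 1.84e-07) were then called higher. All 62 calls of members against a control kept their direction and stayed past the threshold with the trend removed.

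**Figure D4:**
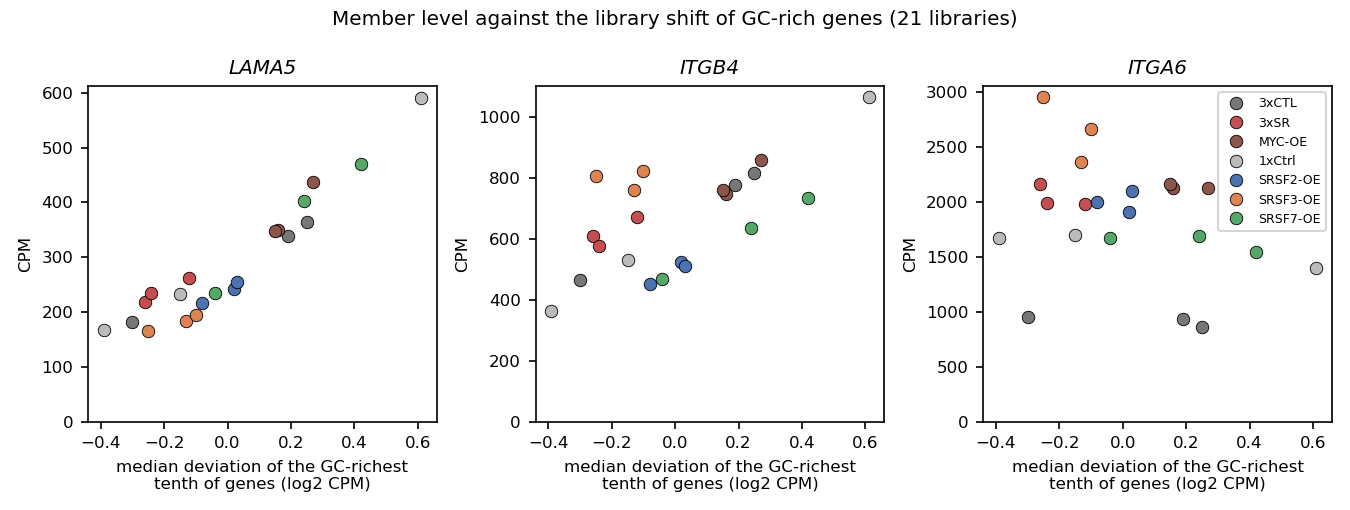
CPM of LAMA5, ITGB4 and ITGA6 (linear axes from 0) against the median deviation of the decile of genes with the highest GC content (log2 CPM) in the 21 libraries, coloured by group. The library farthest right, 1xCtrl replicate 2 at 0.61, has the highest LAMA5 (591.2) and ITGB4 (1066), whereas ITGA6 there (1401) is the lowest of the 1xCtrl libraries.

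Lines of one table were compared directly. MYC-OE differed from 3xSR in 12 of the 32 members, 9 higher and 3 lower (34.9% of all genes, 17.3% higher and 17.6% lower). SRSF3-OE differed from SRSF2-OE in 17, 12 higher and 5 lower (26.8%, 14.1% and 12.6%), and from SRSF7-OE in 17, 10 higher and 7 lower (35.2%, 17.8% and 17.3%). SRSF2-OE differed from SRSF7-OE in 12, 6 higher and 6 lower (24.2%, 11.5% and 12.8%).

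The step from control to 3xSR was compared with the step in each single line by a difference of differences over all 7 groups. It was called for 13 members against the SRSF2-OE step, 11 higher and 2 lower (21.9% of all genes, 13.3% higher and 8.53% lower). Against the SRSF3-OE step it was called for 9, 7 higher and 2 lower (17.8%, 10.8% and 7.02%), and against SRSF7-OE for 11, 8 higher and 3 lower (24.6%, 13.6% and 10.9%). With the GC trend removed the count against SRSF3-OE was 15. That against SRSF7-OE was 7 without 3xCTL replicate 3, 3xSR replicate 1 or SRSF7-OE replicate 3. ITGA6 stepped up more in 3xSR than in any single line, by 0.83 against SRSF2-OE, 0.42 against SRSF3-OE and 1.12 against SRSF7-OE (edgeR's adjusted p = 1.97e-05, 0.0114 and 5.44e-07). ITGA1 did so by 1.62, 0.78 and 1.39 (edgeR's adjusted p = 1.14e-08, 0.000106 and 6.02e-08). For ITGA4 the step in 3xSR was larger than in SRSF2-OE by 0.92 (edgeR's adjusted p = 0.000827) and than in SRSF7-OE by 0.64 (edgeR's adjusted p = 0.0132), and differed from that in SRSF3-OE by 0.20 (interval from -0.15 to 0.55). Its call against SRSF7-OE was lost by limma-voom and without 3xCTL replicate 3, 3xSR replicate 1 or SRSF7-OE replicate 3. LAMB3 stepped up less in 3xSR than in SRSF3-OE, by -0.86 (edgeR's adjusted p = 0.00961). Each step rests on the control of its own table. For ITGA6, ITGA1 and ITGA4 those controls stood apart, with means of 918 against 1593 CPM, 4 against 9.96 CPM and 0.788 against 1.65 CPM. The mean of ITGA4 itself was 5.42 CPM in 3xSR, below 5.98 in SRSF2-OE and 7.29 in SRSF7-OE. Whether a difference between the tables took part in these values was not tested.

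The proteins that work with integrins and laminins were taken as 3 lists. Of 25 adaptors and signalling proteins, 3 were higher and 8 lower in 3xSR. TNS4, a tensin of epithelial tumours, was highest at 0.50 and TNS1, a tensin of focal adhesions, lowest at -1.09 (edgeR's adjusted p = 0.00067 and 2.82e-05). In MYC-OE 3 were higher and 6 lower, with SRC, a kinase of adhesion signalling, at 0.57 and ACTN4, an actin crosslinker, at -0.96 (edgeR's adjusted p = 0.000222 and 3.27e-06). In SRSF2-OE 6 were higher and 3 lower, with TNS4 at 1.11 and TNS3 at -0.38 (edgeR's adjusted p = 8.45e-07 and 0.00111). In SRSF3-OE 5 were higher and 3 lower, with FERMT1, the kindlin of epithelium that activates integrins, at 0.95 and TLN2, a talin, at -0.80 (edgeR's adjusted p = 3.68e-06 and 1.18e-05). In SRSF7-OE 7 were higher and 0 lower, with TNS1 at 0.60 (edgeR's adjusted p = 0.00227). The median log2 fold change of the 25 was -0.11, -0.04, 0.09, 0.04 and 0.13 in these 5 lines in turn. The share of the list that was called was 44.0%, 36.0%, 36.0%, 32.0% and 28.0%, where 29.0%, 35.3%, 23.5%, 29.2% and 17.3% of all genes were called, so the counts in MYC-OE and SRSF3-OE were close to those over all genes.

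Of 4 other hemidesmosome genes, COL17A1, the transmembrane collagen of the junction, rose in 3xSR (0.32), MYC-OE (0.52) and SRSF3-OE (0.35), with edgeR's adjusted p = 0.00282, 6.43e-05 and 0.00784. CD151, a tetraspanin that binds laminin receptors, fell in 3xSR (-0.35, edgeR's adjusted p = 0.0224), a call lost with the GC trend removed (-0.10) and in 4 of the 6 fits without a replicate, and rose in MYC-OE (0.47, edgeR's adjusted p = 0.00391). DST, the plakin that ties the junction to keratin, fell in MYC-OE (-0.27, edgeR's adjusted p = 0.00939) and SRSF7-OE (-0.54, edgeR's adjusted p = 0.002). The call of COL17A1 in SRSF3-OE was lost in 5 of the 6 fits without a replicate. None of the 4 was called in SRSF2-OE, where 23.5% of all genes were called. In 3xSR, MYC-OE, SRSF3-OE and SRSF7-OE the counts were 2, 3, 1 and 1 of 4, beside 29.0%, 35.3%, 29.2% and 17.3% of all genes.

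Among the 7 markers listed as basal or squamous, several keratins moved in the lines where ITGA6 rose. KRT14, a keratin of basal cells, was higher in 3xSR (0.98), MYC-OE (0.47) and SRSF3-OE (0.94), with edgeR's adjusted p = 7.28e-05, 0.00546 and 0.00214. KRT6A, a keratin of stressed or squamous epithelium, was higher in 3xSR (0.58), MYC-OE (0.51), SRSF2-OE (0.87) and SRSF3-OE (0.66). KRT17 was higher in SRSF3-OE (1.60, edgeR's adjusted p = 0.0011) and EPCAM in MYC-OE (0.26, edgeR's adjusted p = 0.00896). Lower calls were CDH1, or E-cadherin, in 3xSR (-0.22) and SRSF3-OE (-0.33), TP63 in MYC-OE (-0.24) and SRSF2-OE (-0.36), and KRT5 in SRSF2-OE (-0.31) and SRSF3-OE (-0.37). The calls of TP63 in MYC-OE and KRT5 in SRSF2-OE were lost without MYC-OE replicate 3 and without SRSF2-OE replicate 2 or 3. None of the 7 was called in SRSF7-OE, where 17.3% of all genes were called. In 3xSR, MYC-OE, SRSF2-OE and SRSF3-OE the counts were 3, 4, 3 and 5 of 7, beside 29.0%, 35.3%, 23.5% and 29.2% of all genes. The part of these markers in the changes of the hemidesmosomal members was not tested.

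Of 13 other basement membrane proteins and laminin receptors, 1 was higher and 3 lower in 3xSR, 5 and 2 in MYC-OE, 2 and 5 for SRSF2-OE, 1 and 5 for SRSF3-OE and 3 and 2 for SRSF7-OE. These are 30.8%, 53.8%, 53.8%, 46.2% and 38.5% of the list, beside 29.0%, 35.3%, 23.5%, 29.2% and 17.3% of all genes, and in 3xSR the share was close to that over all genes. COL4A4, a chain of type IV collagen, had the largest increase in 4 of the lines, from 0.71 in SRSF2-OE to 2.12 in MYC-OE (edgeR's adjusted p = 0.036 and 4.09e-05). COL4A1 was the gene called higher in SRSF3-OE (0.44, edgeR's adjusted p = 0.00226). The largest decreases were HSPG2, or perlecan, in 3xSR (-0.91, edgeR's adjusted p = 0.0209) and SRSF3-OE (-1.43, edgeR's adjusted p = 0.0262), BCAM, a receptor for LAMA5, in SRSF2-OE (-0.89, edgeR's adjusted p = 0.0165), and NID2, a linker of laminin and collagen, in MYC-OE and SRSF7-OE (-0.31 and -0.30, edgeR's adjusted p = 0.000254 and 0.00584). The calls of COL4A4 in SRSF2-OE and of HSPG2 in 3xSR and SRSF3-OE were each lost in at least 3 of the 6 fits without a replicate, as was that of COL4A1 in SRSF3-OE, and the call of BCAM was lost without SRSF2-OE replicate 1 or 2.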

How the data were processed

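The values deposited by the authors are whole-number read counts per gene, not scaled to a common total, as 2 tables. The submitters' processing notes name Trimmomatic 0.39, STAR, StringTie 2.1.3b and GRCh38.p13 with no role or order. The counting step, its strand setting and its annotation are not given in the sources used here. Libraries are polyA-selected and stranded, per the labels' protocols.

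The test was edgeR 4.0.16 under R 4.3.3: filterByExpr (minimum count 10, minimum total 15), TMM scaling, robust glmQLFit and the quasi-likelihood F test, fitted per table over all its groups (23160 and 24362 genes) and, for differences of differences, over both tables (25013 genes), with Benjamini-Hochberg adjustment over all genes. The SE is the absolute log2 fold change divided by the square root of F. CPM use TMM-scaled totals within a table; levels per length divide by the exon length in GENCODE 29, and the release behind the counts is unknown. Alternatives were RLE, upper-quartile or no scaling factors, other filters, DESeq2 1.42.0, limma-voom (limma 3.58.1), fewer groups, the replicate block, removal of the GC trend (50 bins, an offset) and leaving out each replicate. The procedure was tested on simulated data.

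Values in every library are given for members called with an absolute log2 fold change of at least 1 and a mean of at least 1 CPM in the higher group, and for the 3 integrins and 3 laminins highest per length; other members named with library values were chosen after their values were seen. Of the partner lists, the called genes with the largest increase and decrease are named, and CD151 in MYC-OE was added after its value was seen. The members, lists and tests were chosen with earlier results of these data known. Floors and precision from depth cover counting error only. Splicing was not analysed here. One leukocyte marker of the planned list is not reported here, and the summed level leaves it out.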

Additional observations from a re-analysis of the deposited data

Results flagged for a closer look

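In 4 comparisons 2 lines of one table moved in opposite directions from their shared control and differed by the direct edgeR test. How many of all genes did so was not counted. ITGA10 was called higher in 3xSR and lower in MYC-OE, and MYC-OE was below 3xSR by -1.53 on the log2 scale (edgeR's adjusted p = 0.000226). Its call in 3xSR (0.65, edgeR's adjusted p = 0.0357) was lost with no filter and in 4 of the 6 fits without a replicate. ITGB2 was called lower in SRSF2-OE and SRSF3-OE and higher in SRSF7-OE, with differences of -1.52 (edgeR's adjusted p = 0.000172) and -1.85 (edgeR's adjusted p = 1.67e-05) from SRSF7-OE. Its call in SRSF7-OE (0.62, edgeR's adjusted p = 0.047) was lost under RLE scaling, with unscaled totals, with no filter, with the replicate block, with the other groups left out of the fit and in 5 of the 6 fits without a replicate. The direct differences of ITGA10 and ITGB2 between lines kept their calls under every alternative run. LAMA3 was called higher in SRSF3-OE and lower in SRSF7-OE, with a difference of 1.07 (edgeR's adjusted p = 4.67e-07).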

How the results depend on the processing

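Of the 62 calls of members against a control, 44 held under every alternative, 48 under every one other than leaving out a replicate, and 0 changed sign. The count in SRSF7-OE, 4, was 7 by DESeq2 and 11 with the GC trend removed, and that of the 3xSR step against the SRSF3-OE step, 9, was 15 with the trend removed. ITGB1 in 3xSR, not called at 0.01, was -0.12 with the trend removed (edgeR's adjusted p = 0.017). With a replicate left out, the counts ran from 10 to 15 in 3xSR, 13 to 19 in MYC-OE, 8 to 10 in MYC-OE against 3xSR, 7 to 17 in SRSF2-OE, 14 to 19 in SRSF3-OE and 2 to 12 in SRSF7-OE. They ran from 13 to 18 in SRSF3-OE against SRSF2-OE, 14 to 18 against SRSF7-OE and 8 to 11 in SRSF2-OE against SRSF7-OE. For the step in 3xSR they ran from 11 to 16 against SRSF2-OE, 7 to 12 against SRSF3-OE and 7 to 14 against SRSF7-OE. The causes were not tested. Same-numbered libraries showed no shared deviation (correlations from -0.19 to 0.0543). With 3 libraries per group this cannot show that same-numbered libraries were handled apart, and the labels do not say. With the replicate number as a block, 57 of the 62 calls held, and LAMB2 in 3 lines, ITGAM in SRSF2-OE and ITGB2 in SRSF7-OE lost theirs. Depth limits ITGA8, ITGA11 and ITGB3, which were not tested, and ITGAL, ITGAX, ITGA9 and LAMA1, with few counts.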
